A study of Mus musculus with 16 samples.

Results

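Tbx2, Tbx3, Tbx5, Tbx18 and Tbx20 are the 5 T-box transcription factor genes described here, selected by name from the 16118 genes measured in mouse fetal heart. All 5 passed the minimum level for testing, a mean of at least 1 CPM (read counts scaled to library size) over all libraries, as did 13950 genes in all. The study deleted the homeobox factors Meis1 and Meis2 and compared atria and ventricles at E15.5, a fetal stage with separate chambers. The 4 dKO embryos were labelled Meis1flox/flox; Meis2flox/flox with the transgene aMHC tg/wt, a Cre recombinase under the alpha-myosin heavy chain promoter, which is active in cardiomyocytes. The 4 control embryos carried the same floxed alleles of both genes and no Cre (aMHC +/+), so Cre and deletion cannot be told apart in these groups. Each embryo gave 1 atrial and 1 ventricular library, and the outflow tract had been cut away. Per the labels' protocols the embryos came from 4 litters, with 1 dKO and 1 control embryo taken from each, but which embryos were littermates is not given, so dKO and control embryos were compared without pairing.

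Reads assigned to listed genes came to 14.3 to 19.3 M in dKO atria, 14.8 to 19.4 M in control atria, 7.88 to 14.3 M in dKO ventricles and 15.6 to 23.0 M in control ventricles (M, megareads). Every dKO ventricle library was thus shallower than every control ventricle library. Meis1 averaged 26.1 ± 3.19 CPM in dKO and 40.4 ± 2.61 CPM in control atria, and 40.9 ± 2.41 CPM in dKO ventricles against 41.5 ± 3.96 CPM in control ventricles (SD, n = 4 each). Meis2 averaged 26.5 ± 1.90 CPM in dKO and 25.4 ± 2.05 CPM in control atria, and 23.4 ± 2.85 CPM in dKO ventricles against 39.2 ± 3.46 CPM in control ventricles. Whole-gene counts of this kind do not show whether the floxed exon is missing. The chamber labels matched the markers, since 10 ventricular myocyte markers summed to 18192 to 19766 CPM in dKO ventricles and 20602 to 22570 CPM in control ventricles, but 348 to 1171 CPM in dKO atria and 683 to 1898 CPM in control atria. In bulk tissue, fewer cells of a type and less RNA per cell cannot be told apart.

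T-box proteins bind DNA through a conserved domain, the T-box, and act as activators or repressors of transcription. In the embryonic heart, Tbx5 and Tbx20 activate chamber myocardial genes together with Nkx2-5 and Gata4, and Tbx5 is best known from Holt-Oram syndrome in people. Tbx2 and Tbx3 are repressors that keep the atrioventricular canal and the conduction system from taking on a chamber programme, and BMP signals induce Tbx2. Tbx18 marks the epicardium, the sinus horns with part of the sinoatrial node, and mural cells.

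In the GRCm38 assembly with GENCODE annotation, Tbx3 (ENSMUSG00000018604, chromosome 5, 119670669 to 119684724) and Tbx5 (ENSMUSG00000018263, chromosome 5, 119832668 to 119885219) are neighbours on the plus strand, 147944 bases apart with no other protein-coding gene between them. Tbx2 (ENSMUSG00000000093) lies on chromosome 11 at 85832551 to 85841948. Tbx18 (ENSMUSG00000032419, 87702800 to 87731260) and Tbx20 (ENSMUSG00000031965, 24718138 to 24774303) are both on the minus strand of chromosome 9, far from each other. Exons of Tbx18 share 970 bases with D030062O11Rik on the opposite strand. Since the use of strand in counting is not given in the sources used here, reads of that gene could enter Tbx18, but it averaged at most 0.80 CPM in any group. Tbx3 shares 115 exonic bases with the antisense gene Tbx3os1, which was not analysed here.

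RefSeq promoter windows (GRCm38.p6) were matched for 2 of the 5 genes, Tbx18 and Tbx20. They are shown because the deleted Meis proteins bind a core sequence, TGACAG, that can be looked for in them. The window ran from 250 bases before the transcription start to 50 after it, and matches on either strand were counted. The 250 bases before the start are printed in the direction of the gene, for Tbx18 at chr9:87731261-87731510 and for Tbx20 at chr9:24774304-24774553, both on the minus strand. The third line is the 30 bases of Tbx18 at chr9:87731225-87731254, with the match to TGACAG in capitals.
Tbx18 before the start: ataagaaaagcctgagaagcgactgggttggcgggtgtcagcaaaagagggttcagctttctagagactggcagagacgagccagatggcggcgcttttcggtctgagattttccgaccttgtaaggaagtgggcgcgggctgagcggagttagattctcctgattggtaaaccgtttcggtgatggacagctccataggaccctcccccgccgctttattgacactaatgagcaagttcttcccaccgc
Tbx20 before the start: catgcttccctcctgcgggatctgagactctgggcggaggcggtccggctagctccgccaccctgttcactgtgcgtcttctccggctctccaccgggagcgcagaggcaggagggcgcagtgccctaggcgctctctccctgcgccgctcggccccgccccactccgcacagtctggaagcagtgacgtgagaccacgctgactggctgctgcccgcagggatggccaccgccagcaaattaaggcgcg
Tbx18 after the start: gccttgaagtgcTGACAGatcaaggcaaca

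The TGACAG match in Tbx18 begins at base 19 after the start, and the Tbx20 window has none. Of 14690 such windows of listed genes, 17.0% hold TGACAG. The core of the T-box binding site, GGTGTGA, occurs in neither window and in 3.4% of all windows. A match is a run of letters and was not tested for binding.

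Of the 5 genes, Tbx5 and Tbx20 had the highest mean levels per length in atria and Tbx20 in ventricles, where Tbx5 lay near Tbx18. Per kilobase of annotated exon, Tbx20 averaged 32.7 ± 3.22 CPM in dKO atria, 35.3 ± 0.628 in control atria, 45.6 ± 3.57 in dKO ventricles and 35.8 ± 2.04 in control ventricles (SD, n = 4 each). Tbx5 averaged 39.3 ± 3.34 CPM per kilobase in dKO atria and 36.8 ± 2.93 in control atria, but 10.2 ± 1.33 in dKO ventricles and 7.59 ± 0.353 in control ventricles. Tbx18 lay between 8.20 and 10.8 CPM per kilobase in the 4 groups, Tbx2 between 3.36 and 8.09, and Tbx3 between 1.41 and 3.39. The lowest single value rested on 71 reads, for Tbx3 in dKO ventricle 2, whereas Tbx20 had at least 4683 reads in every library.

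**Figure D1:**
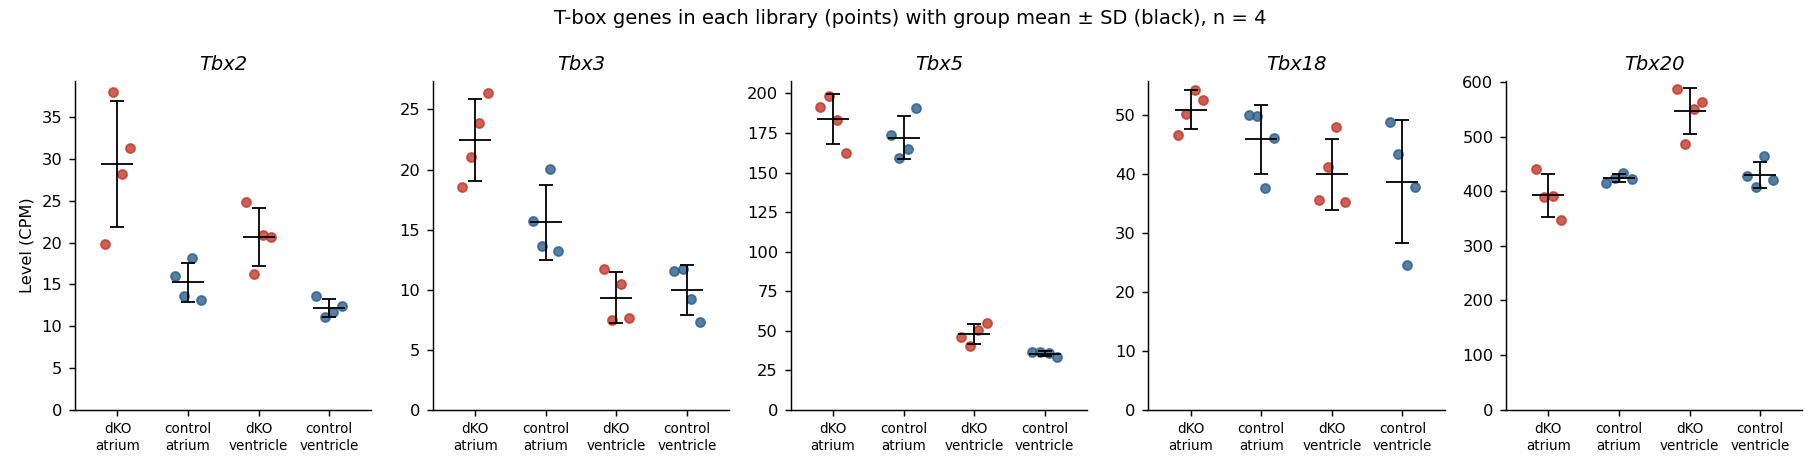
Level of each T-box gene in CPM (vertical axis, starting at 0) in the 4 groups. Points are libraries, and black bars are the group mean ± SD of 4 libraries. Tbx2 is higher in dKO than in control libraries in both chambers, Tbx5 and Tbx20 in ventricles, and the atrial level of Tbx5 is above every ventricular level.

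The first question, named by the series design, is how dKO tissue differs from control tissue in each chamber. Of the 5 T-box genes, Tbx2 rose in dKO atria, and Tbx2, Tbx5 and Tbx20 rose in dKO ventricles. None fell in either chamber. The test was limma's moderated test on log2(CPM + 1) over all 13950 genes, called at a Benjamini-Hochberg adjusted p under 0.05. By that rule 4.04% of all genes were higher and 3.43% lower in dKO atria, 7.47% in either direction, against 1 of the 5 T-box genes. In ventricles 0.989% of all genes were higher and 1.01% lower, 2% in either direction, against 3 of the 5. The groups did not overlap for 1 of the 5 in atria, where this held for 14.1% of all genes, and for 3 of the 5 in ventricles, where it held for 8.11%. The median log2 difference of the 5 genes was 0.15 in atria and 0.35 in ventricles, with medians of -0.0046 and -0.018 over all genes tested.

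Tbx2, the repressor of the chamber programme, measured 19.8, 38.0, 28.2 and 31.4 CPM in dKO atria 1 to 4, against 16.04, 13.6, 18.1 and 13.2 CPM in control atria 1 to 4. All dKO atria were above all control atria, and dKO atrium 1 was the nearest to them. The log2 difference was 0.88 ± 0.17 (SE; adjusted p = 0.00916), a level 1.93 times that of control. In ventricles Tbx2 measured 24.8, 16.3, 20.9 and 20.7 CPM in dKO libraries, against 13.6, 11.1, 11.6 and 12.4 CPM in control libraries. Here too the groups were apart, with a log2 difference of 0.70 ± 0.12 (adjusted p = 0.00718), a level 1.69 times that of control. The embryo with the lowest Tbx2 in dKO atria, number 1, had the highest value in dKO ventricles. Leaving out any single library kept both calls, with log2 differences of 0.75 to 1.05 in atria and 0.61 to 0.81 in ventricles. Sample titles carry a number of unstated meaning, and the numbers are not balanced over genotypes. Of them, 1 is held by dKO embryo 1 alone and 1 by 1 dKO and 2 control embryos. The remaining number is shared by 2 dKO and 2 control embryos. Within these 4 embryos the log2 difference in ventricles was 0.54 and was not called (adjusted p = 0.304).

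Tbx3, a close relative of Tbx2 with a similar repressor role in the conduction system, measured 18.5, 21.1, 23.9 and 26.4 CPM in dKO atria, against 15.7, 13.6, 20.0 and 13.2 CPM in control atria. Control atrium 3 lay inside the dKO range, so the groups overlapped. The log2 difference of 0.50 ± 0.14 missed the threshold (adjusted p = 0.0518). It also missed in 12 of 18 alternative fits, with an adjusted p of up to 0.146 when 1 library was left out. It passed without control atrium 3 (log2 0.62, adjusted p = 0.0153), without dKO atrium 1 (0.59, adjusted p = 0.0287), when that number entered as a covariate (0.62, adjusted p = 0.0131), within the 4 embryos of 1 title number (0.59, adjusted p = 0.0187), at a minimum of 5 CPM (0.50, adjusted p = 0.0435) and by DESeq2 (0.52, adjusted p = 0.0118). In ventricles Tbx3 measured 11.7, 7.43, 10.5 and 7.61 CPM in dKO libraries, against 11.5, 11.7, 9.21 and 7.34 CPM in control libraries, which overlap almost wholly. The log2 difference there was -0.088, with a 95% interval of -0.46 to 0.28 (adjusted p = 0.885).

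Tbx5, the activator of chamber genes, measured 46.1, 40.2, 50.4 and 54.7 CPM in dKO ventricles, against 36.4, 36.6, 35.8 and 33.1 CPM in control ventricles. Every dKO library was above the narrow control range, and the log2 difference was 0.41 ± 0.084 (adjusted p = 0.0249). The size of this rise was steadier than its call. Without any one of the libraries other than dKO ventricle 2 the call was lost, with a log2 difference of 0.35 to 0.43 and an adjusted p of 0.0516 to 0.0803. The libraries whose omission ended it were dKO ventricles 1, 3 and 4 and control ventricles 1, 2, 3 and 4. It was also lost with no minimum level (adjusted p = 0.0512) and within 1 title number (log2 0.29, adjusted p = 0.504). In atria Tbx5 measured 192, 198, 183 and 163 CPM in dKO libraries, against 174, 159, 165 and 191 CPM in control libraries. Those groups overlapped, with a log2 difference of 0.095 and a 95% interval of -0.071 to 0.26.

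Tbx20, which works with Tbx5 in chamber myocardium and is also expressed in endocardium and cushions, measured 587, 487, 551 and 563 CPM in dKO ventricles, against 428, 407, 464 and 420 CPM in control ventricles. The groups were apart, and the log2 difference was 0.35 ± 0.062 (adjusted p = 0.0109), a level 1.27 times that of control. The call held without any single library (log2 0.31 to 0.40) and was lost within 1 title number (0.31, adjusted p = 0.142). In atria the direction was the opposite in the mean, with 441, 390, 391 and 347 CPM in dKO libraries, against 415, 424, 433 and 423 CPM in control libraries. There dKO atrium 1 was the highest of all atria and the other dKO libraries the lowest, and the log2 difference was -0.12 with a 95% interval of -0.27 to 0.038 (adjusted p = 0.407).

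Tbx18, the epicardial and sinus horn factor, measured 46.7, 50.3, 54.3 and 52.6 CPM in dKO atria, against 50.1, 49.8, 37.6 and 46.1 CPM in control atria. In ventricles it measured 35.6, 41.2, 48.1 and 35.2 CPM in dKO libraries, against 48.9, 43.5, 24.5 and 37.9 CPM in control libraries. The groups overlapped in both chambers, and the log2 differences were 0.15 in atria (95% interval -0.045 to 0.36) and 0.079 in ventricles (-0.29 to 0.45). Levels of the same embryo were alike in both chambers for some embryos. Control embryo 3 had the lowest value of both chambers and control embryo 1 had the highest ventricular and the highest control atrial value.

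**Figure D2:**
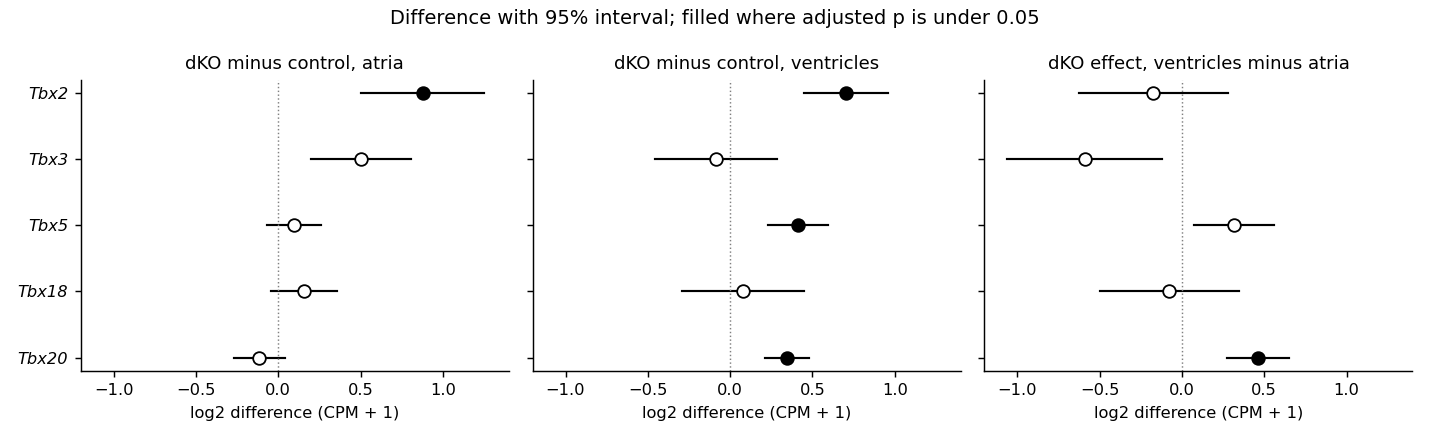
The log2(CPM + 1) difference of each T-box gene (horizontal axis) with its 95% interval, for dKO minus control in atria, in ventricles, and for the dKO effect in ventricles minus that in atria. Filled points passed an adjusted p of 0.05 over all 13950 genes: Tbx2 in atria, Tbx2, Tbx5 and Tbx20 in ventricles, and Tbx20 for the difference between chambers.

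Whether the dKO effect itself differed between chambers was tested over all 16 libraries with embryo as a block. By this test 2.64% of all genes were called, 1.31% with a higher effect in ventricles. Of the 5 T-box genes only Tbx20 was called, with an effect higher in ventricles by a log2 of 0.46 ± 0.091 (adjusted p = 0.00664), and it stayed called in all 18 alternative fits (log2 0.39 to 0.52). The differences of Tbx3 (-0.59, 95% interval -1.06 to -0.12, adjusted p = 0.219) and Tbx5 (0.32, 0.076 to 0.56, adjusted p = 0.189) missed the threshold. That of Tbx5 passed it without dKO embryo 2 (0.43, adjusted p = 0.0357). For Tbx2, which rose in both chambers, the difference was -0.17 with a 95% interval of -0.63 to 0.28.

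Each embryo also allows its ventricle to be set against its own atrium. Tbx5 was the most chamber-restricted of the 5 genes, lower in ventricles of every embryo, with a ventricle to atrium ratio of 0.202 to 0.337 in dKO embryos and 0.174 to 0.230 in control embryos. Its log2 difference, ventricle minus atrium, was -1.93 ± 0.082 in dKO (adjusted p = 1.50e-12) and -2.24 ± 0.082 in control embryos (adjusted p = 2.04e-13). Tbx3 was lower in ventricles of every embryo as well, with ratios of 0.288 to 0.634 in dKO and 0.460 to 0.860 in control embryos, and log2 differences of -1.197 in dKO (adjusted p = 5.35e-06) and -0.61 in control embryos (adjusted p = 0.00424). Chamber differences were common among all genes. In dKO embryos 22.5% of all genes were lower and 26.5% higher in ventricles, 49.1% in either direction, against 4 lower and 1 higher of the 5 T-box genes. In control embryos 20.5% were lower and 46.9% differed in either direction, against 2 lower of the 5.

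Tbx20 showed a chamber difference in dKO embryos, where the ventricle was above the atrium in 4 of 4 with a ratio of 1.25 to 1.62 (log2 0.48 ± 0.064, adjusted p = 5.71e-06). In control embryos the ratio was 0.961 to 1.07 and the log2 difference 0.018, with a 95% interval of -0.12 to 0.15. The difference between these values is the test of the dKO effect between chambers given above. In control embryos the sign of the small Tbx20 value depends on the scaling, and with quantile normalization it was -0.19 and called (adjusted p = 0.0421). Tbx2 was lower in ventricles of 3 of 4 dKO embryos (log2 -0.47, adjusted p = 0.0170) and of 4 of 4 control embryos (-0.29, adjusted p = 0.127). The dKO call of Tbx2 was lost without dKO embryo 2 (-0.23, adjusted p = 0.210) or 4 (-0.43, adjusted p = 0.0666), and the control value passed without dKO embryo 1 (adjusted p = 0.0413).

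Tbx18 was lower in ventricles of all 8 embryos, at ratios of 0.669 to 0.885 in dKO and 0.653 to 0.977 in control embryos. Its log2 difference was -0.35 in dKO (adjusted p = 0.0479) and -0.27 in control embryos (adjusted p = 0.121). The dKO call is fragile, since it was lost without dKO embryo 1, 2, 3 or 4 or control embryo 2 or 4 (log2 -0.41 to -0.28, adjusted p 0.0539 to 0.183), with no minimum level (adjusted p = 0.0635) and without the replicate block (adjusted p = 0.0724). The control difference was called by edgeR (log2 -0.31, adjusted p = 0.00992) and DESeq2 (-0.31, adjusted p = 0.00558). Ordered by mean, Tbx3, Tbx5 and Tbx18 were highest in dKO atria, then control atria, and lower in ventricles, whereas Tbx2 ran dKO atria, dKO ventricles, control atria, control ventricles, and Tbx20 ran dKO ventricles, control ventricles, control atria, dKO atria. For Tbx5 the 3 steps of that order were not alike, since both atrial groups overlapped and both ventricular groups did not.

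**Figure D3:**
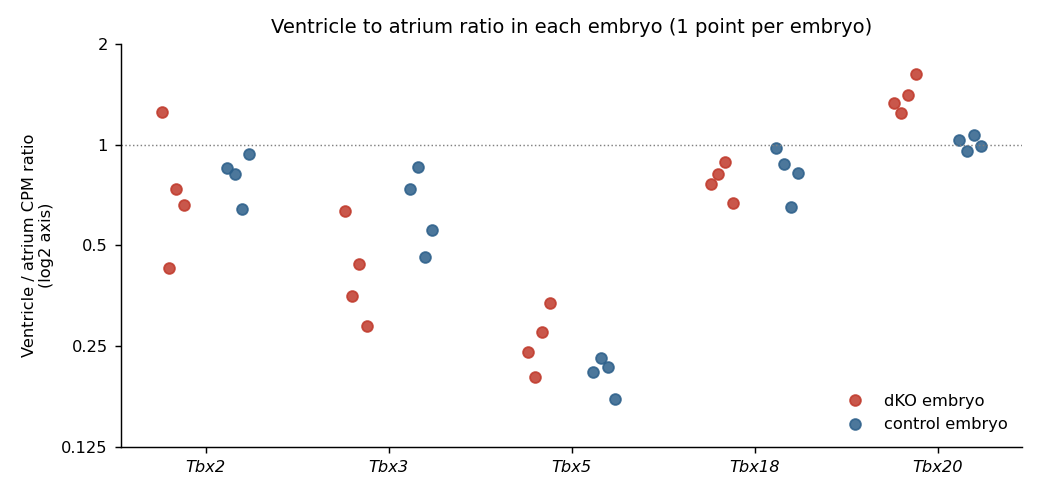
Ratio of ventricular to atrial CPM (vertical axis, log2 scale) for each T-box gene, with 1 point per embryo, dKO embryos left of control embryos. Tbx5 lies between 0.174 and 0.337 in all 8 embryos, and Tbx20 lies above 1.2 in the 4 dKO embryos and near 1 in the 4 control embryos.

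Genes whose pattern was most like each T-box gene were sought by Pearson's r of log2(CPM + 1) over the 16 libraries, where the chamber and genotype differences shared by many genes enter r. For Tbx2 these were Gpr85 (r = 0.944), Scn7a (0.917) and Nab2 (0.884), and for Tbx3 Nlgn2 (0.956), Hexa (0.946) and Col1a2 (0.944). For Tbx5 they were Tmem176a (0.993), Epha4 (0.992) and Gipr (0.991). Tbx18 was closest to Pdgfd (0.898), Tmem72 (0.873) and Pramef8 (0.871), and Tbx20 to Zranb2 (0.880), Abi2 (0.854) and Mtr (0.841). With the 4 group means removed, the closest were Tnc, Piezo2 and Tmem45a for Tbx2 (0.913 to 0.932), Adamts12, Stx2 and Wrn for Tbx3 (0.859 to 0.918), Foxk1, Tmem144 and Fam234b for Tbx5 (0.863 to 0.901), Dffa, Mrpl3 and Gm10288 for Tbx18 (0.839 to 0.890), and Hspa13, Gm12840 and Pygo1 for Tbx20 (0.898 to 0.927). None of these 30 entries is another T-box gene.

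Of the other T-box family genes, 2 of 13 names were found in the table. Mga, a MAX-binding protein that also has a T-box, averaged 83.8 CPM in dKO and 85.1 CPM in control atria, and 79.2 CPM in dKO ventricles against 81.3 CPM in control ventricles, and was not called (adjusted p = 0.897 and 0.839). Tbx1, known from the second heart field and pharyngeal arches, averaged 0.415 CPM in dKO and 1.06 CPM in control atria, and 0.458 CPM in dKO ventricles against 0.236 CPM in control ventricles, below the minimum for testing. Among 22 partners and cofactors of T-box proteins 1 rose and 1 fell in dKO atria and none was called in dKO ventricles (median log2 -0.077 and 0.016). Over all genes 7.47% were called in atria and 2% in ventricles, shares that also apply to the lists that follow. Tle4, a Groucho corepressor, rose to 19.9 CPM in dKO atria, against 13.8 CPM in control atria (log2 0.50, adjusted p = 0.00447). Casz1, a zinc finger partner of Tbx20, fell to 60.4 CPM in dKO atria, against 76.5 CPM in control atria (log2 -0.34, adjusted p = 0.0215), a call lost without control atrium 2 (adjusted p = 0.0635) or 4 (0.0699). Chd4 and Gata6, the cofactors with the highest mean CPM over all libraries, had log2 differences of -0.028 and 0.090 in ventricles.

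BMP ligands, receptors and targets, several of which act upstream of Tbx2, moved in both directions in dKO atria. Of 20 genes 4 rose and 2 fell (median log2 0.21, against -0.0046 for all genes). Bmp2, the ligand of the atrioventricular canal, rose to 26.9 CPM in dKO atria, against 15.8 CPM in control atria (log2 0.73 ± 0.081, adjusted p = 0.000255). The inhibitory Smad7 rose (log2 0.40, adjusted p = 0.0117). Bmp5 fell to 18.5 CPM in dKO atria, against 34.7 CPM in control atria (log2 -0.87, adjusted p = 0.000979). In dKO ventricles 1 of the 20 was called, a fall of the BMP target Id2 (log2 -0.42, adjusted p = 0.0136) that was lost without control ventricle 3 (adjusted p = 0.0528) or 4 (0.0512). Bmp2 averaged 10.2 CPM in dKO ventricles against 9.08 CPM in control ventricles. A link between the BMP genes and the level of Tbx2 was not tested in either chamber.

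Of 12 genes listed for the atrioventricular canal, 1 rose and 2 fell in dKO atria (median log2 0.19). None was called in dKO ventricles (median log2 -0.076). The list holds canal genes together with Hey1 and Hey2, which limit the canal, so its counts and medians mix both kinds. The rise was Bmp2. Hey1, a repressor that limits Tbx2 and Bmp2 to the canal, fell to 21.7 CPM in dKO atria, against 33.4 CPM in control atria (log2 -0.60, adjusted p = 0.00605), and so did the calcium channel subunit Cacna2d2 (-0.80, adjusted p = 0.000784). Hey2, which has the same role and is mainly ventricular, averaged 134 CPM in dKO ventricles against 158 CPM in control ventricles (log2 -0.24, adjusted p = 0.0632). A link of Hey1 or Hey2 to the level of Tbx2 was not tested. Of 14 sinus node genes 2 rose in dKO atria, the matricellular Smoc2 (log2 0.52, adjusted p = 0.0148) and the connexin Gjd3 (0.74, adjusted p = 0.0186), and 1 rose in dKO ventricles, the T-type channel Cacna1h (0.30, adjusted p = 0.0113). Smoc2 lost its call without control atrium 4 (adjusted p = 0.0523), and Gjd3 without control atrium 1 or dKO atrium 2 or 3 (adjusted p 0.0508 to 0.0631).

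Genes described as activated by Tbx5 did not move one way. Of 14, 2 rose and 3 fell in dKO atria (median log2 -0.068), and 2 rose and 2 fell in dKO ventricles (-0.080). In ventricles, where Tbx5 rose, the natriuretic peptide gene Nppa rose to 2722 CPM in dKO libraries, against 744 CPM in control libraries (log2 1.90 ± 0.14, adjusted p = 3.36e-05), and Gja5, the connexin 40 gene, rose to 167 CPM in dKO libraries, against 105 CPM in control libraries (0.67, adjusted p = 0.000416). Irx4, the ventricular homeobox factor, fell (-0.51, adjusted p = 0.00156), as did Id2. A link of the genes on this list to the level of Tbx5 was not tested in either chamber. In atria Nppa (0.63, adjusted p = 0.0184) and Nppb (0.96, adjusted p = 0.0171) rose and Atp2a2, the calcium pump of the sarcoplasmic reticulum, fell (-0.50, adjusted p = 0.00907). Nppa lost the atrial call without control atrium 2, 3 or 4 or dKO atrium 3 (log2 0.55 to 0.64, adjusted p 0.0543 to 0.0611), with no minimum level (adjusted p = 0.0672) and with quantile normalization (0.41, adjusted p = 0.100), and Nppb without control atrium 2 or 3 or dKO atrium 2 or 3 (0.82 to 0.92, adjusted p 0.0503 to 0.0563).

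Of 11 chamber and cell cycle genes described as repressed by Tbx2 or Tbx3, 1 rose and 3 fell in dKO atria (median log2 -0.25), and 2 rose and 2 fell in dKO ventricles (-0.13). Gja1, the connexin 43 gene, fell to 73.1 CPM in dKO atria, against 193 CPM in control atria (log2 -1.39 ± 0.10, adjusted p = 1.37e-05), and to 342 CPM in dKO ventricles, against 431 CPM in control ventricles (-0.33, adjusted p = 0.00232). Cited1 fell to 18.6 CPM in dKO atria, against 68.5 CPM in control atria (-1.85, adjusted p = 0.000104), and Smpx, a small muscle protein gene, fell in atria (-0.56, adjusted p = 0.00157). Nppa and Gja5, which are on this list and on that of Tbx5, rose in dKO ventricles, where Tbx2 and Tbx5 both rose. A link of the genes on this list to the level of Tbx2, Tbx3 or Tbx5 was not tested. Exons of Nppa, Gja5, Atp2a2 and Casz1 overlap a listed gene on the opposite strand, and strand use in counting is unknown. The overlapping genes averaged 3.11 CPM (Nppa), 19.7 CPM (Gja5), 0.372 CPM (Atp2a2) and 0.658 CPM (Casz1) over all libraries, in each case less than the difference between the group means of the called comparisons above. Within the 4 embryos of 1 title number, Casz1, Smoc2, Nppa and Hey1 in atria and Id2, Irx4, Gja1 and Cacna1h in ventricles lost their calls.

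**Figure D4:**
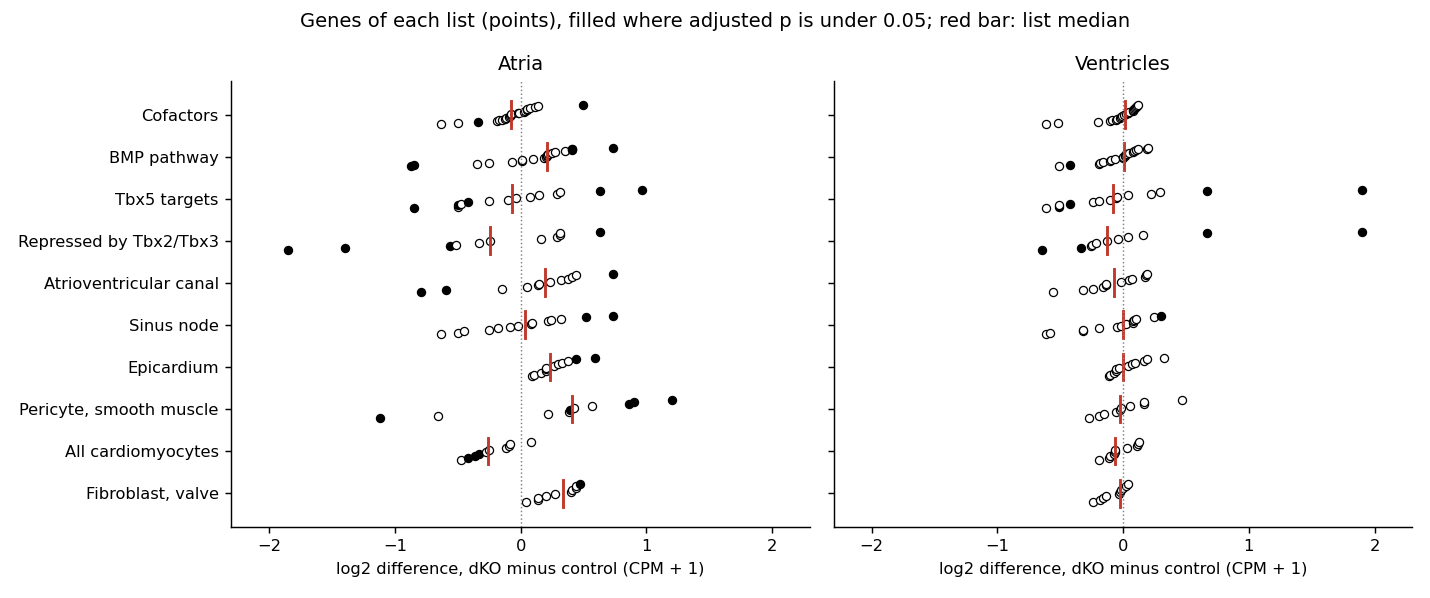
The log2(CPM + 1) difference, dKO minus control, of each tested gene (points) of 10 gene lists in atria and ventricles. Filled points passed an adjusted p of 0.05, and red bars are list medians. The medians of the epicardial, pericyte and smooth muscle, and fibroblast and valve lists are 0.24, 0.41 and 0.34 in atria, and 0.00074, -0.022 and -0.027 in ventricles.

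Markers of other cell types were counted in the same dKO atria in which Tbx2 rose, and most of them did not pass the test. Called or not, every epicardial, fibroblast and valve, and macrophage marker had a positive log2 difference there. The lowest were 0.087, 0.043 and 0.24, and the list medians 0.24, 0.34 and 0.36. Pericyte and smooth muscle, endothelial, and neural and glial markers went both ways. Over all genes 7.47% were called in atria. Of 12 epicardial markers 2 rose, of 10 pericyte and smooth muscle markers 4 rose and 1 fell, of 10 fibroblast and valve markers 1 rose, of 8 macrophage markers 1 rose, of 5 neural and glial markers 1 rose, and of 10 endothelial markers 1 fell. Among the pericyte and smooth muscle markers, the rises of Cspg4 and Acta2 and the fall of Abcc9 were kept in all 18 alternative fits. That list summed to 1330 to 1691 CPM in dKO and 977 to 1119 CPM in control atria. Within it, Acta2 averaged 838 CPM in dKO and 446 CPM in control atria. Both epicardial calls were fragile: Msln lost its call when dKO atrium 1, 2 or 3 was left out, or control atrium 2, 3 or 4 (adjusted p up to 0.0912), and Tcf21 on omission of dKO atrium 2, 3 or 4, or of control atrium 1, 2 or 4 (up to 0.122). The single fibroblast call, Dcn, was lost without control atrium 4 (adjusted p = 0.0550), the macrophage call, C1qb, on omission of dKO atrium 2 or 3, or of control atrium 4 (up to 0.0519), the neural call, Uchl1, on omission of dKO atrium 3, or of control atrium 1 or 2 (up to 0.0557), and the endothelial call, Kdr, without dKO atrium 1 or 3 or any 1 control atrium (up to 0.0904). Of 10 markers of all cardiomyocytes 3 fell, with a summed level of 22022 to 24304 CPM in dKO and 25568 to 29308 CPM in control atria. Of these 3, Ldb3 kept its call in all 18 alternative fits. Actn2 lost its call without dKO atrium 2 or control atrium 1, 2 or 4 (adjusted p up to 0.0651). Pln lost its call on omission of dKO atrium 2, 3 or 4, or of control atrium 2, 3 or 4 (up to 0.133). Pln averaged 127 CPM in dKO and 170 CPM in control atria. Its exons overlap Cep85l and a second listed gene on the opposite strand, which averaged 15.2 and 2.29 CPM over all libraries. Epicardial markers summed to 552 to 635 CPM in dKO and 443 to 513 CPM in control atria, and fibroblast and valve markers to 4782 to 7924 CPM in dKO and 4226 to 5593 CPM in control atria. Macrophage markers summed to 99.8 to 168 CPM in dKO and 99.8 to 120 CPM in control atria, with dKO atrium 1 the lowest of the dKO libraries for the fibroblast and valve and the macrophage list and inside the control range. The part of these in the atrial values of Tbx2, Tbx3 and Tbx18 was not tested, nor was their part in the ventricular values of any T-box gene. In ventricles 2% of all genes were called. None of the epicardial, pericyte and smooth muscle, fibroblast and valve, macrophage, endothelial, neural or common cardiomyocyte markers was among them. There epicardial markers summed to 132 to 165 CPM in dKO and 127 to 170 CPM in control libraries, fibroblast and valve markers to 3352 to 4135 CPM in dKO and 3642 to 4087 CPM in control libraries, and common cardiomyocyte markers to 21634 to 24652 CPM in dKO and 20736 to 25089 CPM in control libraries. Of the chamber-specific lists, 3 of 11 atrial myocyte markers rose and 5 of 10 ventricular ones fell in dKO ventricles, and in dKO atria 3 atrial markers rose and 2 fell and 1 ventricular marker rose and 4 fell.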

How the data were processed

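The deposited values are CPM of 16118 genes in 16 libraries. The submitters' processing notes name cutadapt, RSEM 1.3.1 and GRCm38. Per the labels' protocols, libraries were made from 20 ng of total RNA with a NEBNext Ultra kit. Not given in the sources used here were the scaling, gene filter, annotation release and strandedness. Each CPM value equals whole reads plus 0.5 times 1 step per library, and 100% of values were whole within 0.001, which gave the reads for depths, edgeR and DESeq2. At this depth 3 reads correspond to 0.110 to 0.312 CPM. Replicates differed by 6.47 to 25.7 times the counting variance. The protocols describe 4 litters with a dKO and a control embryo each, but the labels do not say which embryos were littermates, and the numbers in the titles do not form such pairs. The tests of dKO against control are therefore unpaired and may leave out a litter pairing, and p-values measure the spread between these embryos.

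limma 3.58.1 (R 4.3.3) was fitted to log2(CPM + 1), which understates changes of low genes, with a mean-variance trend and Benjamini-Hochberg adjustment over 13950 genes. Genotypes were compared within each chamber. Chamber contrasts and the difference between chambers used embryo as a block, since 1 animal gave both chambers. Same-embryo deviations correlated at 0.254 to 0.731, and the consensus correlation was 0.108. The limma test was checked on simulated counts with independent libraries and the same dispersion for every gene. That setting has no embryo effect, so it could not check the embryo block. Ventricle minus atrium in dKO was not simulated. Alternatives were pseudocounts of 0.5 and 5, no minimum level or 5 CPM, TMM or quantile scaling, edgeR 4.0.16, DESeq2 1.42.0, the number in the sample titles as a covariate, the 4 embryos of 1 title number alone, no block, and leaving out each library or embryo. The 4 embryos of 1 title number were fitted alone only for dKO against control in each chamber. DESeq2's adjusted p was left missing where it gave none.

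The genes, the 16 gene lists and the tests were chosen with earlier results of these data known. Named list genes were at most 3 called genes of each list by adjusted p, or at most 2 by level; lists of cell type markers are given by counts and sums. IDs of 16096 genes matched GENCODE M21.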

Additional observations from a re-analysis of the deposited data

Results flagged for a closer look

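The dKO effect on Tbx20 differed between chambers by the test of that difference, with an effect higher in ventricles than in atria by a log2 of 0.46 (limma, adjusted p = 0.00664). Tbx20 averaged 546.8 ± 42.8 CPM in dKO ventricles against 429.6 ± 24.5 CPM in control ventricles, and 392.2 ± 38.6 CPM in dKO and 424 ± 7.54 CPM in control atria (SD, n = 4 each). In 20 groups of 4 libraries, 4 for each T-box gene, no library stood far enough from the other 3 to pass Dixon's 95% limit.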

How the results depend on the processing

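Of 440 refitted values of the 5 T-box genes in 5 comparisons, 398 kept both direction and side of the threshold, 21 lost a call, 10 gained one and 11 changed sign. The number of T-box genes called in atria was 2, not 1, at a minimum of 5 CPM, by DESeq2, with the title number as a covariate and within 1 title number, since Tbx3 passed, and 1 to 2 over fits without 1 library. In ventricles it was 0, not 3, within 1 title number (2 against 2 libraries), and 2 to 3 without 1 library. Without 1 embryo each it was 3 to 5 for ventricle minus atrium in dKO and 1 to 2 for the difference between chambers. All genes called in ventricles numbered 279, against 469 with DESeq2 and 79 within 1 title number, and those called for the difference between chambers 368, against 238 to 470 without 1 embryo (238 without dKO embryo 3, 241 without control embryo 4). Values that changed sign were small and, but for 1, not called. On the log2 scale these were Tbx20 for ventricle minus atrium in control (-0.012 with TMM, -0.19 and called with quantile scaling, -0.024 with edgeR, -0.020 with DESeq2, and -0.0085 to 0.043 without 1 embryo), and within 1 title number Cep162 in atria (0.014) and Tbx18 in ventricles (-0.050). Without 1 library each, dKO minus control ranged from -0.20 to 0.044 for Cep162 in atria, and in ventricles from -0.21 to 0.0014 for Tbx3, -0.12 to 0.20 for Tbx18, -0.082 to 0.027 for Meis1, -0.18 to 0.023 for Cep162 and -0.13 to 0.30 for Nt5e. Without 1 embryo each, the difference between chambers ranged from -0.43 to 0.062 for Tbx2 and -0.18 to 0.0041 for Tbx18. Without the replicate block for embryo, Tbx18 lost its call for ventricle minus atrium in dKO (-0.35, adjusted p = 0.0724), and no other call of a T-box gene changed. The cause of these shifts was not tested. Fits without 1 library or embryo and fits within 1 title number also had fewer libraries. The shallow dKO ventricle libraries limit Tbx3 most, at 71 reads in the lowest.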

Other observations

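Genes next to the T-box genes on the chromosome were looked up by position. Nt5e, the ecto-nucleotidase CD73 that forms adenosine, is the next protein-coding gene to Tbx18 on its higher-coordinate side, 595937 bases away on the opposite strand. Nt5e averaged 21.01 CPM in dKO and 8.05 CPM in control atria (log2 1.29 ± 0.093, adjusted p = 1.36e-05), and 6.27 CPM in dKO ventricles against 6.15 CPM in control ventricles (log2 0.079, adjusted p = 0.929). Its dKO effect differed between chambers (log2 -1.21, adjusted p = 0.0121), whereas that of Tbx18 was not called. The other listed neighbours, Cep162 beside Tbx18, Med13l beside Tbx3, Rbm19 beside Tbx5 and Bcas3 beside Tbx2, were not called for dKO against control in either chamber, with log2 differences of -0.15 to 0.14.

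The deviations of Tbx18 from the group mean had the same sign in both chambers of 6 of 8 embryos, and those of Tbx20 in 6 of 8. Those of Tbx5 had the same sign in 1 of 8, of Tbx2 in 3 and of Tbx3 in 4. Over the 8 embryos, atrial and ventricular deviations correlated at 0.91 for Tbx18 but 0.25 for Tbx20. The correlation was -0.84 for Tbx5, -0.72 for Tbx2 and -0.21 for Tbx3, and none of these was tested. Some atrial deviations of Tbx20 were very small, such as -0.00045 in dKO embryo 3, so their signs say little. For Tbx18 the embryos farthest from their group were control embryo 3, at -0.27 in the atrium and -0.59 in the ventricle on the log2 scale, and control embryo 1, at 0.13 and 0.37.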
